A study of Drosophila melanogaster with 23 samples.

Results

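The genes described here are the 10 Drosophila melanogaster genes Hex-A, Pgi, Pfk, Tpi, Gapdh1, Gapdh2, Pgk, Pglym78, Eno and PyK, which encode enzymes of glycolysis. They were taken by symbol as enzymes of the pathway, with earlier results of these data known, out of 17104 symbols in the count table of the attp2 libraries and 17103 in that of the w1118 libraries, and all 10 were in both. The data are bulk RNA-seq counts from 23 libraries of hearts taken out of adult flies. In the attp2 table, 5 libraries were hearts at 1 week labelled as attp2 with LamC RNAi, 5 were attp2 hearts at 5 weeks and 5 were attp2 hearts at 1 week. In the w1118 table, 4 libraries were w1118 hearts at 5 weeks and 4 were w1118 hearts at 1 week. Both strains served as controls, attp2 being a landing-site strain used as the genetic background of RNAi lines and w1118 a white-eyed laboratory strain. The RNAi against Lamin C, the A-type lamin, was expressed under the Hand promoter. Hand encodes a transcription factor of heart cells. The series asked which genes age in w1118 hearts, which age changes the 2 control strains share, and which genes of ageing attp2 hearts overlap with those of LamC RNAi hearts. The labels number the libraries but do not say that they came from separate pools of flies, so each p-value below rests on library-to-library spread, some of which can be technical.

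Glycolysis splits glucose into pyruvate in the cytosol and yields a small amount of ATP and NADH. Its early steps spend ATP to trap and split the sugar, and its late steps recover ATP at phosphoglycerate kinase and pyruvate kinase. The pyruvate is either taken into mitochondria, where pyruvate dehydrogenase converts it to acetyl-CoA, or reduced to lactate. Insect muscle draws on circulating trehalose and stored glycogen for this pathway, and in flies its enzymes are encoded by single main genes with a few duplicated or testis-restricted copies.

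Positions are given on BDGP6.54, the assembly known as dm6, 1-based and with the strand. Hex-A (FBgn0001186), the hexokinase that phosphorylates glucose, lies at X:9585675-9589813 on the plus strand. Pgi (FBgn0003074), glucose-6-phosphate isomerase, lies at 2R:8910900-8914069 on the minus strand. Pfk (FBgn0003071), phosphofructokinase, the committed and most regulated step, lies at 2R:10109740-10117457 on the plus strand. Tpi (FBgn0086355), triosephosphate isomerase, which interconverts the products of aldolase, lies at 3R:30132981-30134599 on the minus strand. The paralogues Gapdh1 (FBgn0001091) at 2R:7791901-7793380 on the minus strand and Gapdh2 (FBgn0001092) at X:15868145-15869661 on the plus strand encode glyceraldehyde-3-phosphate dehydrogenase, which makes the NADH of the pathway. Pgk (FBgn0250906), phosphoglycerate kinase, lies at 2L:2746880-2753068 on the minus strand. Pglym78 (FBgn0014869), phosphoglycerate mutase, lies at 3R:29148248-29149901 on the plus strand. Eno (FBgn0000579), enolase, lies at 2L:1724768-1729636 on the minus strand. PyK (FBgn0267385), pyruvate kinase, the last step, lies at 3R:22367536-22372746 on the plus strand. Exons of 3 of these genes overlap a gene on the other strand, Eno with Rrp40 over 362 of its 3718 exon bases, Pgk with Cwc25 over 65 bases and Pglym78 with eIF2D over 6 bases. The library kit keeps the strand, but the strand setting of the counting and the handling of reads shared by Gapdh1 and Gapdh2 were not stated in the labels or tables.

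Depth ran from 21.8 to 90.0 M counts per library (M, mega), and each of the 10 genes had at least 2784 counts in every library. Heart markers were present, with 7 or 8 of 8 listed genes at a mean of at least 1 CPM (counts scaled to library size, on the TMM scale of each table) in every group and Hand leading. Group means of Hand were 266 to 548 CPM, while those of prc were only 0.841 to 1.28 CPM. The hearts carried transcripts of neighbouring tissue, led by the oenocyte gene Cyp4g1 at group means of 82410 to 155900 CPM. The summed level of 6 fat body genes was 24200 to 48500 CPM in the libraries labelled LamC RNAi, 8660 to 40300 CPM in attp2 at 5 weeks and 19000 to 42500 CPM in attp2 at 1 week. It was 20800 to 37200 CPM in w1118 at 5 weeks and 14400 to 29100 CPM in w1118 at 1 week. Of that list, Yp1 and apolpp made up most of the sum, while the group means of Fbp1 were at most 4.08 CPM and those of to at most 0.638 CPM. Gut markers were over 10 times their median in attp2 library 3 at 5 weeks (17970 CPM) and attp2 library 3 at 1 week (12840 CPM). Libraries over this limit are called those with gut markers below. LManII made up most of that median, so the limit does not mark every library with gut transcripts. Under it, the sum was 1411 CPM in attp2 library 4 at 5 weeks and 1286 CPM in library 3 labelled LamC RNAi. In the LamC RNAi group alphaTry reached 171 CPM against a median of 4.15 CPM. The RNAi target LamC had means of 149.1 ± 42.4 CPM in libraries carrying the RNAi label and 171.2 ± 33.6 CPM in attp2 at 1 week (SD, n = 5 each), with an edgeR adjusted p of 0.628, so its transcript did not check the RNAi label.

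Together the 10 genes took 0.444% ± 0.060 of counts in the libraries labelled LamC RNAi, 0.383% ± 0.044 in attp2 at 5 weeks and 0.490% ± 0.011 in attp2 at 1 week (SD, n = 5 each). They took 0.378% ± 0.050 in w1118 at 5 weeks and 0.412% ± 0.039 in w1118 at 1 week (SD, n = 4 each). Eno held the greatest part of that sum in every group, with means of up to 21.9%. Per kilobase of exon, the highest levels in attp2 at 1 week were those of Gapdh2, Gapdh1, PyK and Eno, and the lowest those of Hex-A and Pfk (plot of levels along the pathway). In attp2 at 1 week Gapdh2 had 497.5 ± 28.5 and Gapdh1 468 ± 12.8 CPM per kb (SD, n = 5), and their ranges overlapped. PyK came next at 336 ± 11.7 CPM per kb, then Eno at 282 ± 18.2 CPM per kb, each apart from its neighbours in range. Pglym78, Pgi and Tpi followed at 237, 226 and 207 CPM per kb, and these 3 ranges overlapped. Pgk had 144 ± 6.94 CPM per kb, Hex-A 90.5 ± 15.5 and Pfk, the committed step, 44.6 ± 0.613 CPM per kb, and none of these ranges overlapped. The order of the other groups was close to this one, with the paralogues Gapdh1 and Gapdh2 in the top places, then PyK, then Eno, and with Pgk above only Hex-A and Pfk, in all 5 groups. In w1118 the ranges of Hex-A and Pfk overlapped at both ages. Hex-A had 36.6 ± 9.98 CPM per kb against 39.7 ± 7.63 for Pfk at 5 weeks, and 55.1 ± 10.9 against 42.4 ± 3.10 at 1 week (SD, n = 4 each). Levels of the 2 strains come from tables scaled separately and were not tested against each other.

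**Figure D1:**
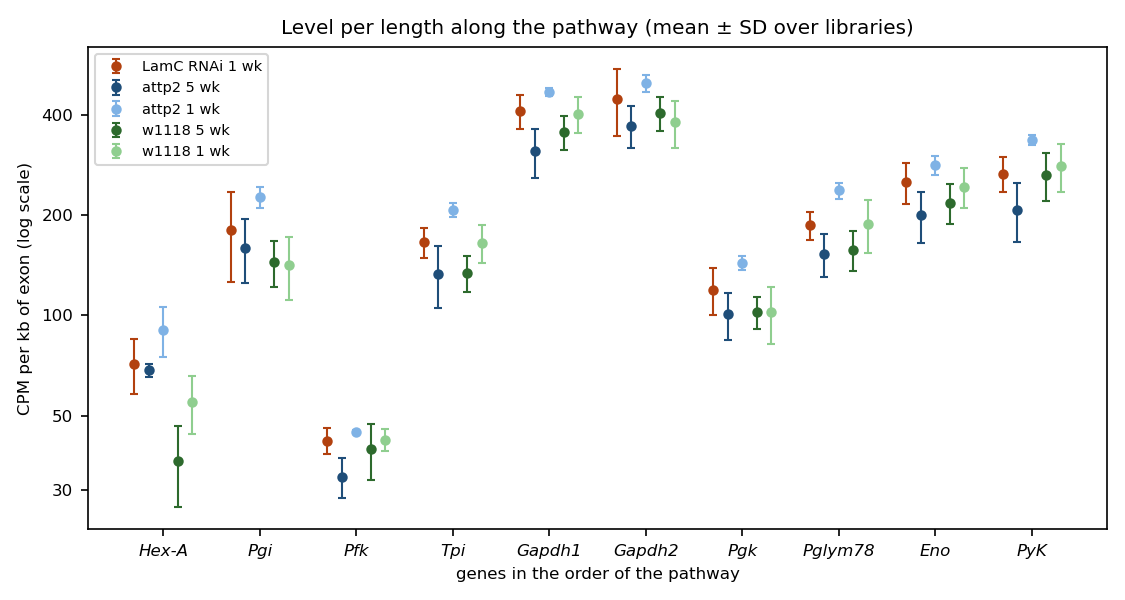
Mean level of each glycolytic gene in CPM per kb of exon (log axis), in the order of the pathway, with SD over libraries, for LamC RNAi at 1 week, attp2 at 5 weeks and attp2 at 1 week (n = 5 each) and w1118 at 5 weeks and 1 week (n = 4 each). Gapdh1 and Gapdh2 were highest in every group, and Pfk and Hex-A were lowest.

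In attp2 hearts glycolytic transcripts fell with age along most of the pathway. Of the 10 genes, 8 were lower at 5 weeks than at 1 week and 0 were higher at an adjusted p under 0.05 (edgeR's quasi-likelihood test with Benjamini-Hochberg adjustment over 10044 genes), where 10.5% of all genes tested were called lower. All 10 log2 fold changes were negative, as were 46.1% of all genes tested. Their median was -0.51, against 0.03 for all genes. The 8 that fell had log2 fold changes of -0.70 (PyK) to -0.42 (Gapdh2), and the 10 members together summed to 3618 ± 560 CPM at 5 weeks and 5235 ± 239 CPM at 1 week (SD, n = 5 each).

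PyK, which makes pyruvate and ATP, had 411, 600.0, 454, 505 and 356 CPM in the attp2 libraries at 5 weeks, against 721, 776, 783, 749 and 736 CPM at 1 week. Every 5-week library was below every 1-week library, library 2 being the highest of the older ones. PyK fell by 38.3%, a log2 fold change of -0.70 ± 0.12 (SE) with an adjusted p of 0.00154. Tpi had 183, 285, 187, 200.3 and 184 CPM at 5 weeks, against 317, 349.6, 323, 315 and 309 CPM at 1 week. Library 2 again stood above the other 4 older libraries and still lay under the young range. The log2 fold change of Tpi was -0.63 ± 0.12 (adjusted p 0.00208). Pglym78, the mutase, had 158, 217, 164, 179 and 152 CPM at 5 weeks, against 258, 274, 283, 282 and 249.7 CPM at 1 week. Its log2 fold change of -0.63 ± 0.10 had the smallest adjusted p of the 10 genes, 0.000579. Gapdh1 had 438, 579.5, 396, 492 and 396 CPM at 5 weeks, against 691, 725, 686, 678 and 683 CPM at 1 week, again with no overlap and a log2 fold change of -0.59 ± 0.11 (adjusted p 0.00197).

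Pgk, the first ATP-yielding step, had 186, 264, 189.5, 234 and 190.5 CPM in attp2 at 5 weeks, against 289, 312, 320.0, 311 and 288 CPM at 1 week, and a log2 fold change of -0.52 ± 0.12 (adjusted p 0.00755). Eno, which makes phosphoenolpyruvate, had 633, 898, 683, 866 and 637 CPM at 5 weeks, against 1011, 1131, 1070.0, 1074 and 953 CPM at 1 week, and a log2 fold change of -0.49 ± 0.12 (adjusted p 0.0105). In both genes libraries 2 and 4 were the highest of the older ones. Pfk had 130.2, 176, 135, 148 and 128 CPM at 5 weeks, against 197, 195, 195, 191 and 198 CPM at 1 week, a young range so narrow that its SD was 2.68 CPM. Its log2 fold change was -0.44 ± 0.09 (adjusted p 0.0029). Gapdh2 had 465, 626, 539, 594 and 453 CPM at 5 weeks, against 661, 703, 761, 755 and 710.1 CPM at 1 week, a log2 fold change of -0.42 ± 0.14. Its adjusted p of 0.0484 was just under the threshold, and it was above the threshold when any 1 of the 10 libraries other than 5-week library 2 was left out, to at most 0.117.

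The first 2 steps of the pathway did not pass the test. Hex-A had 290.2, 269.5, 269.6, 296 and 289.9 CPM at 5 weeks, against 302, 357, 445, 438 and 331 CPM at 1 week. The groups did not overlap, and the spread at 1 week was wide. The log2 fold change of Hex-A was -0.40 ± 0.14 with an adjusted p of 0.0512, and it passed without attp2 library 1 at 1 week (0.0317). Pgi had 328 to 531 CPM at 5 weeks, against 513 to 618 CPM at 1 week, and 5-week library 2, the highest, reached into the young range. Its log2 fold change was -0.50 ± 0.18 with an adjusted p of 0.0676, and without that library -0.63 with an adjusted p of 0.0247. In all, the ranges of 9 of the 10 genes lay below those at 1 week with no overlap, where 8.70% of all genes tested did so.

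**Figure D2:**
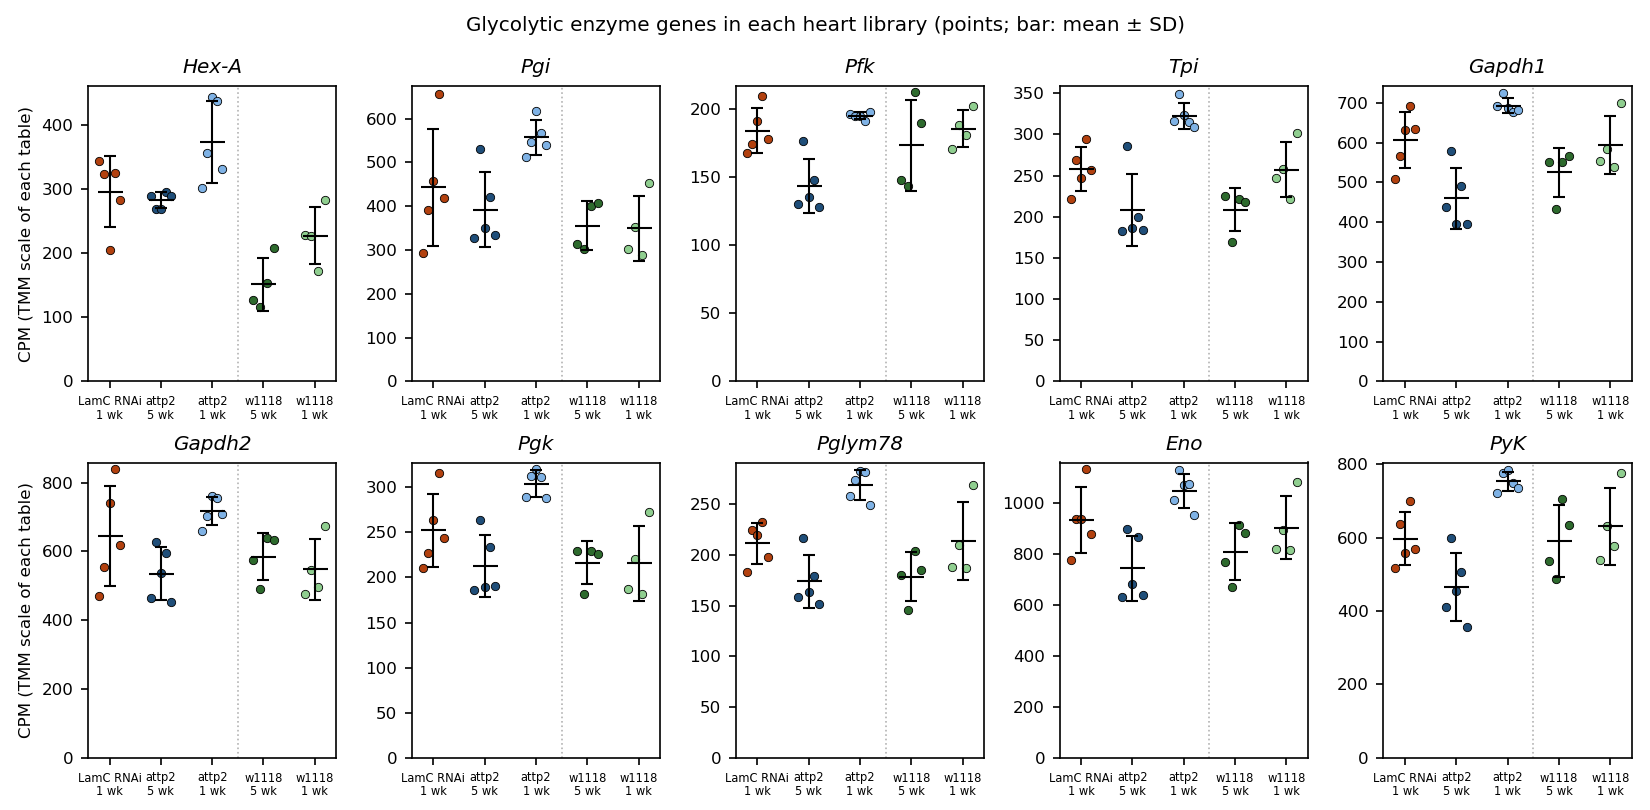
Level of each glycolytic gene in CPM in every library (points), with the mean and SD, for LamC RNAi at 1 week, attp2 at 5 weeks, attp2 at 1 week, w1118 at 5 weeks and w1118 at 1 week. The dotted line divides the 2 tables, which were scaled separately. The attp2 points at 5 weeks lie under those at 1 week in 9 of the 10 panels.

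The older attp2 libraries also differed in tissue markers. Library 2, the highest of the 5 in 9 of the 10 genes, had 40270 CPM of fat body markers against 8663 to 21720 CPM in the other 4, and 1706 CPM of heat shock genes against 390 to 627 CPM. The haemocyte markers, 10 genes led by Col4a1, summed to 1610 to 2540 CPM at 5 weeks and 4530 to 5560 CPM at 1 week. In w1118 the same markers summed to 1970 to 3120 CPM at 5 weeks and 4370 to 4730 CPM at 1 week. The list of muscle markers, chosen for flight and body wall muscle, held 8 genes led by wupA. It summed to 624 to 701 CPM in attp2 at 5 weeks and 726 to 1020 CPM at 1 week, with no overlap. In w1118 it summed to 786 to 1110 CPM at 5 weeks and 1070 to 1260 CPM at 1 week. Of that list, wupA, Mlp60A and Strn-Mlck made up most of the sum. Bulk counts do not show whether transcripts of these genes came from heart muscle or other muscle. In attp2, Act88F averaged 0.416 CPM at 5 weeks and 0.349 CPM at 1 week, and Act79B 1.84 and 1.74 CPM. The attp2 means of fln, TpnC4 and TpnC41C were lower at 5 weeks and at most 0.372 CPM. Of the heart markers, bap had 6.72 to 8.82 CPM in attp2 at 5 weeks and 12.3 to 13.5 CPM at 1 week. H15 had 36.6 to 49.2 CPM and 52.4 to 87.8 CPM. The attp2 means of tin, Doc3 and ogre were also lower at 5 weeks, and those of Hand, mid and prc higher. In w1118, tin had 3.82 to 8.88 CPM at 5 weeks and 10.5 to 12.5 CPM at 1 week. There bap had 8.77 to 15 CPM and 22.4 to 32.8 CPM, and H15 40.5 to 69.6 CPM and 81 to 101 CPM. The w1118 means of mid, Doc3 and prc were also lower at 5 weeks, and those of Hand and ogre higher. The part of all these markers in the results was not tested. In bulk hearts, fewer cells of a type and less RNA per cell cannot be told apart. With the fat body sum of each library added to the fit as a covariate, all 10 log2 fold changes stayed negative, 9 of them closer to 0 and that of Hex-A at -0.46, and 5 genes were called, Pfk, Tpi, Gapdh1, Pglym78 and PyK. Of all genes, 810 were called with this covariate and 2018 without it. The log2 fold change was over 1.5 times closer to 0 for Pfk, then at -0.29, and for Eno, Gapdh2, Pgk and Pgi, then at -0.27, -0.25, -0.32 and -0.26 and not called. Without 5-week library 2 and both libraries with gut markers, 7 were called. The part of other tissues in the age difference was otherwise not tested.

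In w1118 hearts the same comparison called none of the 10 genes. At 5 against 1 week, 0 were lower and 0 higher (edgeR's quasi-likelihood test with Benjamini-Hochberg adjustment over 9631 genes), where 3.70% of all genes were called lower and 5.21% higher. At an unadjusted p under 0.05 there was 1, as against 26.1% of all genes, and DESeq2 called 1, Hex-A in both cases. Of all genes, DESeq2 called 1577 and edgeR 858. The median log2 fold change was -0.13 (all genes 0.01), and 7 of the 10 values were negative (6 to 9 across the alternatives), as were 48.7% of all genes. The summed level was 3795 ± 505 CPM at 5 weeks and 4126 ± 625 CPM at 1 week (SD, n = 4 each).

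Hex-A had 127, 117, 153 and 209 CPM in w1118 at 5 weeks, against 228, 227, 173 and 283 CPM at 1 week. Library 4 at 5 weeks overlapped the young range and the other 3 did not. The log2 fold change was -0.59 ± 0.21 with an adjusted p of 0.103. Without that library it was -0.79 with an adjusted p of 0.0333, and DESeq2 gave an adjusted p of 0.0359. Hexokinase took 3.96% ± 0.721 of the summed level of the 10 genes at 5 weeks and 5.51% ± 0.594 at 1 week, while in attp2 it took 7.98% ± 1.29 at 5 weeks and 7.13% ± 0.953 at 1 week.

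The other w1118 values spread widely within each age. Tpi had 225, 169.8, 222 and 217 CPM at 5 weeks, against 247, 258, 222 and 302 CPM at 1 week, and its log2 fold change of -0.30 ± 0.14 had an adjusted p of 0.198. Pglym78 had 180.1, 145, 204 and 185 CPM at 5 weeks, against 189, 209.9, 187 and 269 CPM at 1 week (log2 fold change -0.26 ± 0.15, adjusted p 0.323). In the younger group library 4 was the highest for all 10 genes, and in the older group library 2 was the lowest for all 10. PyK had 537, 488, 705 and 635 CPM at 5 weeks, against 539, 632, 576 and 775 CPM at 1 week, a log2 fold change of -0.09 ± 0.16 whose 95% interval was -0.45 to 0.26. The intervals were -0.36 to 0.41 for Pgi, -0.42 to 0.23 for Pfk, -0.48 to 0.12 for Gapdh1 and -0.23 to 0.42 for Gapdh2. They were -0.33 to 0.35 for Pgk and -0.48 to 0.16 for Eno. All of these include 0, and their lower ends lay between -0.48 and -0.23.

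Whether age acted differently in the 2 strains was tested as an interaction, the age effect in attp2 minus that in w1118. None of the 10 genes passed (edgeR's quasi-likelihood test, 10387 genes, of which 0.761% were called in either direction), and DESeq2 called 0. The difference was negative, a value lower in attp2 than in w1118, for 9 of the 10 genes, as for 46.0% of all genes, with a median of -0.37 against 0.04. At an unadjusted p under 0.05 there were 5, where 14.9% of all genes had such a p. PyK had the most negative difference, -0.58 ± 0.21 with an interval of -1.01 to -0.14 and an adjusted p of 0.183. Pgi had -0.51 ± 0.22 (adjusted p 0.295), Pgk -0.49 ± 0.18 (0.203), Gapdh2 -0.49 ± 0.17 (0.174) and Gapdh1 -0.39 ± 0.17 (0.283). Hex-A was the 1 gene with a positive difference, 0.22 ± 0.24 (adjusted p 0.718). Without w1118 library 4 at 1 week, the library with the highest values of its group, Gapdh2 passed with an adjusted p just below 0.05 and a difference of -0.61. The 8 genes that fell in attp2 and did not pass in w1118 are therefore not shown to differ between the strains.

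**Figure D3:**
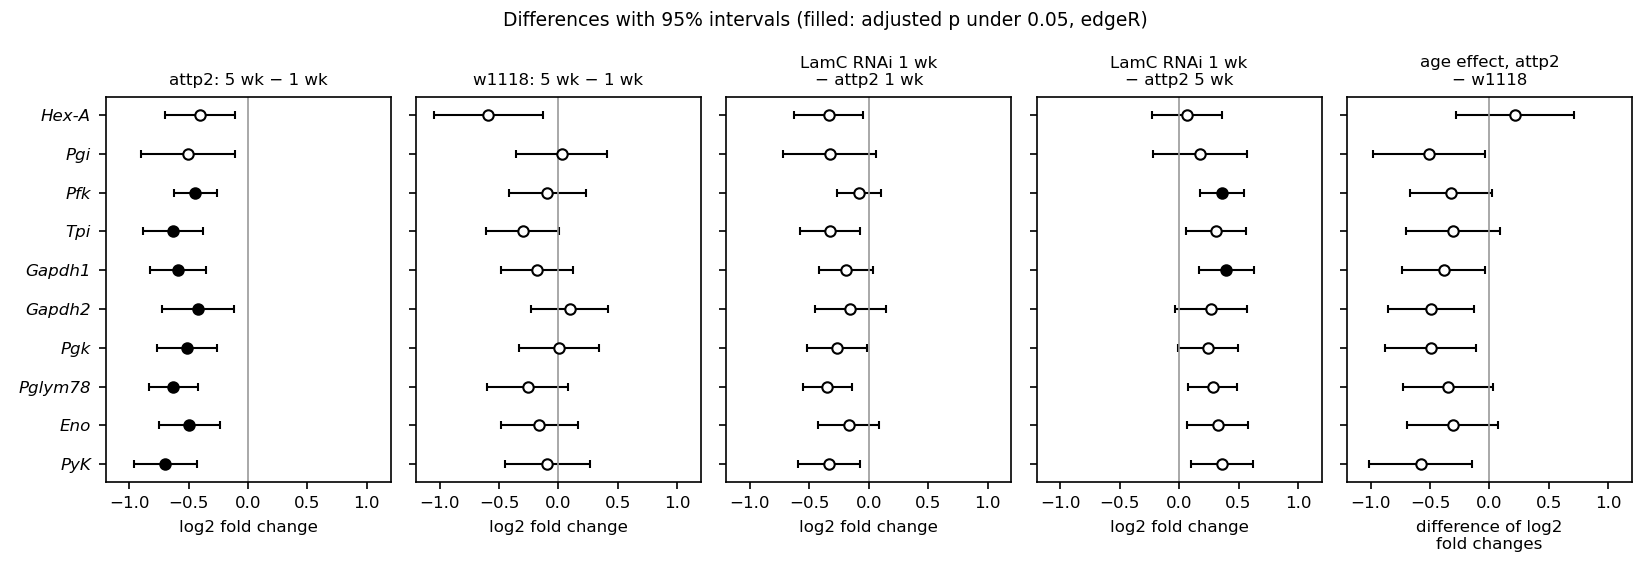
Log2 fold change of each glycolytic gene with its 95% interval in the 4 comparisons, and in the last panel the age effect in attp2 minus that in w1118. Filled points passed an adjusted p of 0.05, 8 of 10 for age in attp2, 2 for LamC RNAi against attp2 at 5 weeks and 0 in the other 3 panels.

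In the hearts labelled LamC RNAi at 1 week, levels lay between those of attp2 at 1 week and at 5 weeks for each of the 10 genes on average. Against attp2 at 1 week, 0 genes were lower and 0 higher (edgeR's quasi-likelihood test with Benjamini-Hochberg adjustment), where 1.54% of all genes were called lower and 0.866% higher. All 10 log2 fold changes were negative (9 with total counts, where Pfk was at 0.02), as were 45.5% of all genes. Their median was -0.30 (all genes 0.03), and 5 had an unadjusted p under 0.05 (19.2% of all genes). The haemocyte markers summed to 5950 to 8040 CPM in the libraries labelled LamC RNAi, above the 4530 to 5560 CPM of attp2 at 1 week and the 1610 to 2540 CPM of attp2 at 5 weeks. The muscle markers summed to 887 to 1030 CPM in the libraries labelled LamC RNAi. Of the heart markers, bap had 7.03 to 10.5 CPM there, below its 12.3 to 13.5 CPM in attp2 at 1 week. The means of tin and H15 were also lower than in attp2 at 1 week, and those of Hand, mid, Doc3, prc and ogre higher. The part of all these markers in these comparisons was not tested. This comparison and that of age in attp2 share the 5 attp2 libraries at 1 week, so values below them in both are not independent.

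Pglym78 came nearest to the threshold. It had 183, 224, 219.7, 232 and 198 CPM in the libraries labelled LamC RNAi, all below its values of 249.7 to 283 CPM in attp2 at 1 week. Its log2 fold change was -0.35 ± 0.10 with an adjusted p of 0.0747, and DESeq2, which called this gene alone of the 10, gave 0.0172. Of all genes, DESeq2 called 692 in this comparison and edgeR 242. PyK had 518, 638, 558, 699 and 569.5 CPM against 721 to 783 CPM in attp2 at 1 week, and Tpi had 222, 269, 247, 294 and 257 CPM against 309 to 349.6 CPM. These 2 genes also showed no overlap, and 2.83% of all genes lay wholly below in this comparison. PyK had a log2 fold change of -0.34 ± 0.12 (adjusted p 0.163) and Tpi one of -0.32 ± 0.12 (0.16). Hex-A had -0.34 ± 0.14 (0.199) and Pgk -0.27 ± 0.12 (0.231). Pgi, with -0.33 ± 0.18 (0.352), had 294, 391, 458, 656 and 419 CPM in the libraries labelled LamC RNAi, a wide spread. For Pfk the value was -0.08 ± 0.09 with an interval of -0.27 to 0.10. Gapdh1, Gapdh2 and Eno had values of -0.19, -0.15 and -0.17 with intervals that include 0. With the fat body sum as a covariate Tpi, Pglym78 and PyK passed, at adjusted p-values of 0.0398, 0.00938 and 0.0484. In that fit 246 of all genes were called.

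Against attp2 at 5 weeks, the libraries labelled LamC RNAi had higher levels of Pfk and Gapdh1, and 0 of the 10 genes were lower (edgeR's quasi-likelihood test with Benjamini-Hochberg adjustment). These groups differ in age as well as in the RNAi label, and the effects of age and RNAi cannot be told apart here. Of all genes, 10.1% were called higher and 9.15% lower, so 2 of 10 is near the background. Pfk had 168, 174, 191, 209.9 and 178 CPM in the libraries labelled LamC RNAi, against 128 to 176 CPM in attp2 at 5 weeks. Its log2 fold change was 0.36 ± 0.09 (adjusted p 0.0101). Gapdh1 had 508, 567, 631, 692 and 634 CPM against 396 to 579.5 CPM, a log2 fold change of 0.40 ± 0.11 (adjusted p 0.0191). For both genes attp2 library 2 at 5 weeks lay inside the range of the libraries labelled LamC RNAi. Each of the other 8 genes had a positive log2 fold change as well, between 0.07 for Hex-A (-0.03 with total counts) and 0.36 for PyK, although Pgi was at -0.13 with the fat body sum as a covariate and at -0.01 without library 4 of those labelled LamC RNAi, and the median was 0.30 (all genes 0.01). Of all genes, 48.5% had a negative value. The ranges of all 10 overlapped. Without attp2 library 2 at 5 weeks 6 genes were called, with Tpi, Pglym78, Eno and PyK in addition, and without library 1 of those labelled LamC RNAi 5 were called. Without attp2 library 5 at 5 weeks 1 was called, and 0 were called when the 2 groups were fitted alone or with the fat body sum as a covariate.

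Neither Gapdh paralogue was called with age in w1118, yet their ratio did not overlap between the ages. Gapdh2 counts divided by Gapdh1 counts were 1.04, 1.14, 1.16 and 1.11 in w1118 at 5 weeks, against 0.860, 0.933, 0.921 and 0.961 at 1 week. Every older library was above 1 and every younger one below it. The means were 1.11 ± 0.051 at 5 weeks and 0.919 ± 0.043 at 1 week (SD, n = 4 each), a log2 difference of 0.28. A two-sided exact permutation test gave p = 0.0286, the smallest that 4 against 4 can give, and 0.114 after Benjamini-Hochberg adjustment over the 4 comparisons of this ratio, which is above 0.05. In attp2 the ratios were 1.06, 1.08, 1.36, 1.21 and 1.14 at 5 weeks, against 0.956, 0.970, 1.11, 1.11 and 1.04 at 1 week. These overlapped, with means of 1.17 ± 0.120 and 1.04 ± 0.075 (SD, n = 5 each), a log2 difference of 0.17 and an exact permutation p of 0.0794 (adjusted 0.159). Each 5-week ratio was above that of the 1-week library of the same number, which this permutation does not use. The numbers are not known to mark pairs. Library 3, one of those with gut markers, was the highest at 5 weeks, and without both such libraries the difference was 0.14. The libraries labelled LamC RNAi had ratios of 0.927, 0.979, 1.17, 1.21 and 0.976. They differed by 0.02 from attp2 at 1 week and by -0.15 from attp2 at 5 weeks on the log2 scale, with exact permutation p-values of 0.857 and 0.175. The difference between the strains in this ratio was not tested, and reads that fit both paralogues would move it.

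**Figure D4:**
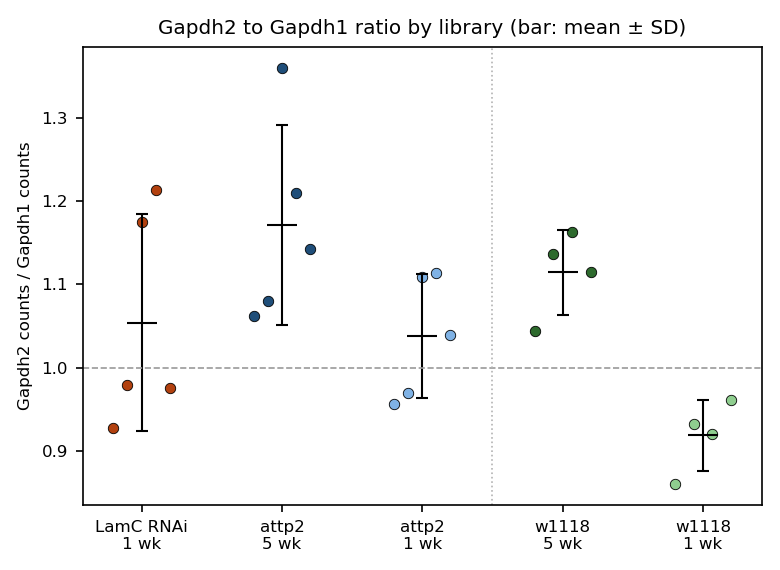
Gapdh2 counts divided by Gapdh1 counts in each library (points) with mean and SD, for LamC RNAi at 1 week, attp2 at 5 weeks, attp2 at 1 week, w1118 at 5 weeks and w1118 at 1 week. The 4 older w1118 libraries lie between 1.04 and 1.16, above the 4 younger ones between 0.860 and 0.961.

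The 10 genes varied together from library to library, with Hex-A as the exception in the attp2 table. As a description over 15 libraries that share tissue, scaling and differing depth, the log2 level of each gene was correlated with the mean of the other 9, and Pearson's r was 0.446 for Hex-A and 0.881 (Gapdh2) to 0.980 (Pgk) for the rest. The 45 pairs of genes had a median r of 0.919, and of 0.834 after group means were taken out. The lowest pair was Hex-A with Gapdh2 at 0.258. In the 8 w1118 libraries r with the other 9 ran between 0.715 for Gapdh2 and 0.992 for Eno, with Hex-A at 0.726.

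The mean profile of the 10 genes was also correlated with the sums of the marker lists. In the attp2 table its r with the log2 fat body sum was 0.732 over 15 libraries and 0.699 within groups, and that with the haemocyte sum 0.635 and 0.333. With the muscle sum it was 0.486 and 0.09, with the oenocyte sum 0.397 and 0.245, and with the heart marker sum 0.069 and -0.001. Hand made up most of the heart marker sum, so its r says little of the other heart markers. In the w1118 table r over 8 libraries and within groups was 0.157 and 0.339 with the fat body sum. With the haemocyte sum it was 0.488 and 0.361, and with the muscle sum 0.642 and 0.557. With the oenocyte sum it was 0.815 and 0.899, and with the heart marker sum -0.794 and -0.793. These are descriptions of a few libraries, with no test. The plot of the glycolytic sum against the fat body sum shows older attp2 libraries 1, 3 and 5 at the left end, and library 2 at 4447 CPM among the libraries labelled LamC RNAi and below all attp2 libraries at 1 week (4958 to 5484 CPM).

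**Figure D5:**
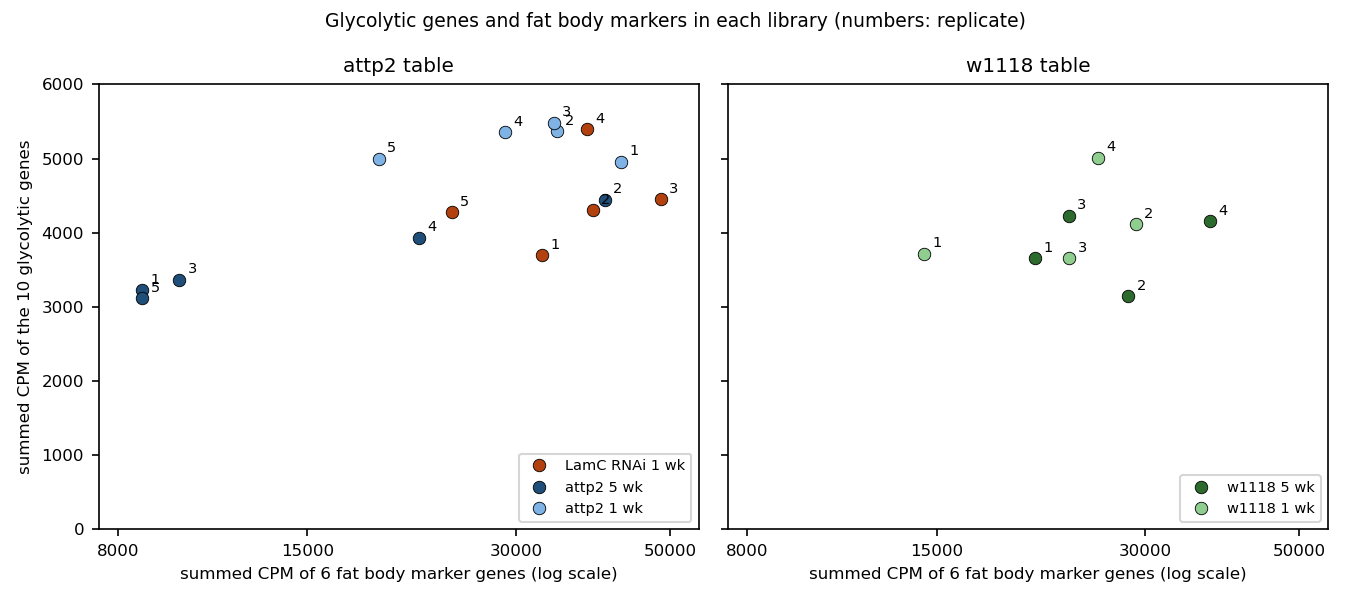
Summed level of the 10 glycolytic genes (vertical axis, CPM) against the summed level of 6 fat body markers (horizontal log axis, CPM) in each library, numbered by replicate, with the attp2 table on the left and the w1118 table on the right. Older attp2 libraries 1, 3 and 5 have the lowest values on both axes of the left panel.

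Genes that feed or drain the pathway were taken from a list of 36, of which 35 were found by symbol and 28 had enough counts to test. With age in attp2, 13 of the 28 fell and 0 rose, against 10.5% of all genes called lower and 9.60% higher, and the median log2 fold change was -0.58. Ald, the aldolase of the pathway, averaged 948 ± 226 CPM at 5 weeks and 1421 ± 38.6 CPM at 1 week (SD, n = 5 each), a log2 fold change of -0.58 ± 0.13 (adjusted p 0.00594). Genes of sugar supply and storage were among the 13. Tps1, which makes trehalose, changed by -0.95 ± 0.19 (adjusted p 0.00342), Treh, which cleaves it, by -0.66 ± 0.18 (0.021), GlyP, glycogen phosphorylase, by -0.85 ± 0.24 (0.0217) and GlyS, glycogen synthase, by -0.62 ± 0.20 (0.0406). Pfrx, the bifunctional enzyme that sets fructose 2,6-bisphosphate, the activator of phosphofructokinase, changed by -0.77 ± 0.14 (0.00144). At the exit to mitochondria, the pyruvate dehydrogenase genes l(1)G0334 and CG11876 (E1 alpha and beta subunits) changed by -0.54 ± 0.08 (0.000383) and -0.65 ± 0.07 (3.08e-05), and muc, the E2 subunit, by -0.47 ± 0.07 (0.000362). PCB, pyruvate carboxylase, changed by -1.15 ± 0.26 (0.00693), and Gpdh, the cytosolic glycerol-3-phosphate dehydrogenase that reoxidises NADH, by -0.59 ± 0.15 (0.0147). CG10924, a phosphoenolpyruvate carboxykinase, changed by -0.69 ± 0.21 (0.0346) and CG7069, a pyruvate kinase paralogue just downstream of PyK on the same strand, by -1.29 ± 0.33 (0.013), at 0.939 ± 0.181 CPM at 5 weeks and 2.31 ± 0.595 CPM at 1 week. Of the 13, GlyS, CG10924, GlyP and Treh lost the call when single libraries were left out, with adjusted p-values of at most 0.104, 0.0943, 0.0596 and 0.0539. The other 9 kept it in all 10 such fits. With the fat body sum as a covariate, Ald, CG7069, PCB, Gpdh, CG10924, GlyP and GlyS were not called. With total counts, Gpdh, CG10924, GlyP, GlyS and Treh were not called, and without the libraries with gut markers Gpdh, CG10924 and GlyS were not. CG10924 and GlyS also lost the call with the 2 groups fitted alone, and GlyS without the filter on low counts or with the replicate block. Treh lost it without 5-week library 2 and both libraries with gut markers.

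The lactate end of the pathway was not called in any comparison. ImpL3, lactate dehydrogenase, had 55.4 ± 23.9 CPM in attp2 at 5 weeks and 61.4 ± 10.3 CPM at 1 week (SD, n = 5 each), a log2 fold change of -0.15 with an interval of -0.69 to 0.39. Hex-C, another hexokinase gene, had 58.7 ± 16.1 CPM at 5 weeks and 87.1 ± 31.6 CPM at 1 week, a log2 fold change of -0.57 ± 0.23 with an adjusted p of 0.102. In w1118, 2 of the 28 genes fell and 0 rose, against 3.70% of all genes called lower and 5.21% higher. Treh had 256 ± 25.6 CPM at 5 weeks and 409 ± 81.8 CPM at 1 week (log2 fold change -0.67 ± 0.15, adjusted p 0.0251), and GlyP had 409.7 ± 44.7 CPM at 5 weeks and 571 ± 42.1 CPM at 1 week (-0.48 ± 0.12, 0.0369). Leaving out single libraries raised these to at most 0.0662 for Treh and 0.102 for GlyP. None of the 28 passed the interaction with strain, and 8 had an unadjusted p under 0.05, as did 14.9% of all genes.

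In the libraries labelled LamC RNAi against attp2 at 1 week, CG11876 and muc were lower, at log2 fold changes of -0.33 ± 0.07 (adjusted p 0.0204) and -0.30 ± 0.07 (0.0342), and no other gene of the 28 fell. CG9961, a phosphoglycerate kinase paralogue, was higher, at 1.32, 0.484, 0.881, 0.648 and 0.915 CPM against 0.0541 to 0.192 CPM, between 24 and 75 counts against 3 to 14 (adjusted p 0.0202). In w1118, which carried no RNAi label and was scaled separately, CG9961 averaged 0.632 CPM at 5 weeks and 0.693 CPM at 1 week. These 3 calls were lost in some of the fits without 1 library, with adjusted p-values up to 0.066 for CG11876, 0.107 for muc and 0.0624 for CG9961. Against attp2 at 5 weeks, where age and the RNAi label differ together and cannot be told apart, 10 of the 28 were higher and 0 lower. Of all genes, 10.1% were called higher and 9.15% lower. The 10 linked genes were CG9961, CG7069, Pfrx, l(1)G0334, CG11876, Tps1, Treh and GlyP, with Glut1, a glucose transporter, and Pgm, which links glycogen to the pathway. Of these, CG7069, Pfrx, CG11876 and Tps1 kept the call whichever library was left out. CG7069 had a log2 fold change of 1.57 ± 0.33, Tps1 one of 0.77 ± 0.19, Pfrx 0.68 ± 0.14 and CG11876 0.32 ± 0.07, and none of the 10 was called with the fat body sum as a covariate.

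The genes whose levels tracked the mean profile of the 10 most closely over the 15 libraries of the attp2 table were l(1)G0334 (Pearson's r 0.955), Mitofilin (0.953), Got2 (0.950), CG1907 (0.948), CG7430 (0.946), Mdh2 (0.945), CG5577 (0.944) and Ald (0.944). Within groups their r was 0.804 to 0.886, and in the 8 w1118 libraries 0.499 (CG5577) to 0.924 (CG1907). Of these, Mdh2 encodes a malate dehydrogenase, Got2 an aspartate aminotransferase, and Mitofilin a protein that shapes the inner mitochondrial membrane. All 8 were lower with age in attp2, at log2 fold changes of -0.93 (CG5577) to -0.51 (CG7430), which their likeness to the profile makes part of the choice. In w1118, which the choice did not use, 0 of the 8 were called with age. Of all genes there, 3.7% were called lower and 5.21% higher, so 0 of 8 is near the background. The log2 fold changes of the 8 ran from -0.41 (Mdh2) to 0.11 (CG5577).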

How the data were processed

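The authors deposited raw counts per gene symbol in 2 tables, the 15 attp2 and LamC RNAi libraries and the 8 w1118 libraries, and matching log2 values. The deposited log2 values equalled log2 of the count divided by the DESeq2 size factor, plus 1, and were not tested. Cutadapt, STAR, DESeq2 and dm6 are named in the submitters' processing notes; which program counted reads, with which annotation and strand option, was not stated in the sources used here. Counts were tested with edgeR 4.0.16 (R 4.3.3; quasi-likelihood test, filterByExpr, TMM), two-sided, with Benjamini-Hochberg adjustment over all genes and a threshold of 0.05. LamC RNAi, attp2 at 5 weeks and attp2 at 1 week shared 1 fit, w1118 had its own, and the interaction was fitted over both tables' control libraries, where strain and table cannot be told apart. DESeq2 1.42.0 was an alternative. SE is the size of the log2 fold change over the square root of its F statistic. CPM per kb uses the summed exon length on BDGP6.54. Libraries of a group differed beyond counting noise (at least 62.9 in chi-square per gene over 42 pairs). The 10 genes and all lists were chosen with earlier results of these data known. Named genes are all 10 members, linked genes that passed, Ald, Hex-C and ImpL3, and the 8 genes most like the members. Reads shared by Gapdh1 and Gapdh2 cannot be checked from the counts.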

Additional observations from a re-analysis of the deposited data

Results flagged for a closer look

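Single libraries stood apart in 5 of 60 sets of values (10 genes, their sum and the Gapdh2 to Gapdh1 ratio in 5 groups), where chance alone gives about 1 in 20. In attp2 at 5 weeks, Tpi had 285.4 CPM in library 2, against 200.3 CPM in the next highest, and that library also had the highest fat body and heat shock sums of its group. In w1118 at 5 weeks, library 2 was the lowest for Gapdh1 (432.8 CPM, next 550.5 CPM), Pgk (181.3 CPM, next 225.6 CPM) and Tpi (169.8 CPM, next 217.4 CPM). In attp2 at 1 week, Gapdh1 had 725.4 CPM in library 2, against 691.1 CPM in the next highest.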

How the results depend on the processing

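Of 1090 log2 fold changes of the 10 genes recomputed under the alternatives, 1025 kept their side of the threshold, 21 of these with a change of sign while not called, 25 lost the call, 40 gained it and 0 reversed a call. With age in attp2 all 10 genes stayed negative in every fit. Between 6 and 10 were called by the other settings, and 5 with the fat body covariate, which was added after seeing the data. Of all genes, 2018 were called in the main fit, 2546 by DESeq2 and 810 with that covariate. For LamC RNAi against attp2 at 5 weeks, 2 genes were called, but 1 with total counts, 4 with a minimum mean of 5 CPM, 5 with DESeq2, 1 without the libraries with gut markers, 0 with the 2 groups alone, 0 with the fat body covariate and 5 without 3 libraries together (also added after seeing the data). Leaving out single libraries gave 1 to 6. Of all genes in that comparison, 1930 were called in the main fit, 2550 by DESeq2 and 515 with the fat body covariate. For LamC RNAi against attp2 at 1 week, DESeq2 called 1 and the fat body covariate 3. Of all genes they called 692 and 246, and the main fit 242. For age in w1118, DESeq2 called 1 and leaving out single libraries gave 0 to 1, as it did for the interaction. DESeq2 called 1577 of all genes for age in w1118, and the main fit 858. With total counts the median of all genes moved to 0.21 for age in attp2, 0.13 for LamC RNAi against attp2 at 1 week and 0.21 for the interaction. Whether replicate numbers pair the samples was left unsettled. Correlations of same-numbered deviations were -0.138 to 0.848 in the attp2 table and -0.009 to 0.154 in w1118. In the attp2 table libraries 1 and 3 matched their own number best in every comparison, and the others did not. These matches do not show pairing. Attp2 library 1 at 1 week was also the best match of libraries 2 and 5 at 5 weeks. Library 3 had the highest gut marker sum in each group of that table. The letters in the deposited library names of that table do not follow the numbers. In w1118 libraries 1 and 4 did so. With the replicate number as a block, 9 genes were called for age in attp2, 1 for age in w1118, 1 and 6 for LamC RNAi against attp2 at 1 week and at 5 weeks, and 0 for the interaction. Of all genes, the block called 2337, 898, 293, 2389 and 176 in that order. The main fits called 2018, 858, 242, 1930 and 79. Permuting the Gapdh2 to Gapdh1 ratio in w1118 within such pairs left the log2 difference at 0.28 (exact p 0.125, the smallest that 4 pairs can give); without single libraries it was 0.25 to 0.31. No w1118 library passed the gut limit, so that alternative gave no value there. Apart from the fits whose construction shows the cause (fewer samples, another covariate), the cause was not tested. Depth did not limit the 10 genes.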
